A study of Mus musculus with 4 samples.

Results

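The data described here were the ATAC-Seq peaks at 10 histone deacetylase genes (Hdac1, Hdac2, Hdac3, Hdac4, Hdac5, Hdac6, Hdac7, Hdac8, Hdac9 and Hdac11) and in a stretch of 150 kb upstream of Hdac4, on chromosome 1 from 92.2 to 92.35 Mb (mm10), in sorted bone marrow cells of control and Cpt1a-KO mice. ATAC-Seq cuts DNA with a transposase where chromatin is accessible, and a peak is a place with more fragment ends than the background of its library. Peaks of the libraries that shared at least 1 bp were merged into regions, and a region belonged to a gene when it overlapped the gene or the 10000 bp on either side. Of 137553 regions with a peak in at least 2 of the 4 libraries, 119 lay at the 10 genes and 21 in the stretch upstream of Hdac4. One region counted in both, so there were 139 regions. A further 158 regions at the genes and 33 in the upstream stretch had a peak in 1 library only and were left out of the comparisons, except as follows. They entered the promoter values, the numbers of regions held by each library and the covered lengths. When a library was left out, such regions also entered the counts confined to 1 genotype. The genes and the upstream stretch were chosen by the presence and the rank of peaks in these same libraries, so the values below are a description and no difference between the genotypes was tested.

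Control mice were Cpt1a fl/fl, with loxP sites around part of the gene and no deletion, and are labelled WT. KO mice were Cpt1a Δ/Δ, labelled Cpt1a-KO, in which Vav1-Cre deleted the gene throughout the hematopoietic system and not only in stem cells. Both were adult C57BL/6 mice on normal chow, and each genotype had 2 libraries (control 1, control 2, KO 1 and KO 2), with nothing in the sources to say whether these came from separate mice. The labels call the cells long-term HSCs from bone marrow, whereas the study describes them as HSPCs, a wider population of stem and progenitor cells. Cells were frozen after sorting.

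Histone deacetylases remove acetyl groups from lysines of histones and other proteins, and acetylated histones are typical of open promoters and enhancers. The acetyl groups come from acetyl-CoA, and CPT1A admits long-chain fatty acids to the mitochondrial oxidation that yields acetyl-CoA. Class I enzymes (HDAC1, HDAC2, HDAC3 and HDAC8) are mostly nuclear, and the first 3 work inside corepressor complexes. Class IIa enzymes (HDAC4, HDAC5, HDAC7 and HDAC9) have little catalytic activity of their own, bind MEF2 transcription factors, and move between nucleus and cytoplasm. HDAC6 (class IIb) acts on tubulin in the cytoplasm, and HDAC11 is the only class IV enzyme. In blood, HDAC1 and HDAC2 together are needed to keep HSCs, and HDAC7 is known from lymphocyte development.

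The 4 peak lists held 161992 to 196611 intervals each, covering 48.9 to 52.9 Mb in the controls and 42.6 to 44.4 Mb in the KO libraries. They gave no read counts, so depth was unknown. A region's level is therefore given as a percentile, the share of the intervals of the same library whose strongest −log10 p was no higher than that of the region, with 0 for no peak. This score belongs to the summit and is not summed over length, and many weak peaks share 1 score, which is why several regions below have identical percentiles. Promoters of 9 of 9 HSC marker genes with an annotated start (of 10 listed) held a peak in every library, at median percentiles from 94.8 to 96.1. Peaks were also found at promoters of other blood lineages, at 3 of 3 B cell, 2 to 4 of 5 T cell (Cd8a at 0), 3 of 4 erythroid (Alas2 at 0) and 3 to 4 of 4 neutrophil genes. The B cell median, over 3 of 5 listed genes, ran from 28.7 and 53.3 in the controls to 72.1 and 68.0 in the KO libraries. In the same order the T cell medians were 0, 43.0, 26.8 and 63.1. Those of erythroid genes were 80.7, 67.2, 79.3 and 78.6, and of neutrophil genes 65.2, 70.2, 59.0 and 64.5. Of 4 genes of other tissues, 1, 2, 1 and 1 had a promoter peak. The part of these differences in the results below was not tested. The deletion itself cannot be read from peaks: Cpt1a, the targeted gene, had a promoter peak in each library (percentiles 94.8, 94.1, 95.3 and 95.9).

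Promoter sequences are shown for the gene with the highest promoter percentile, Hdac4, and for the gene with no promoter peak, Hdac9. Chosen after its values were seen, Hdac7 is also shown, the weakest promoter that still had a peak in every library. Windows are from RefSeq (GRCm38.p6), from 250 bases before to 50 after the start, which gave 12 windows for 8 of the 10 genes, without Hdac1 and Hdac3. All of those shown are on the minus strand and read 5′ to 3′. Capitals mark matches, on either strand, to the CCAAT box (CCAAT), the GC box (GGGCGG) or part of the CTCF site (AGGNGGCG), which can overlap a GC box. The Hdac4 window is chr1:92180292-92180591, the Hdac7 window chr15:97831446-97831745, and the Hdac9 windows, at the outer and the inner annotated start, chr12:34917046-34917345 and chr12:34528840-34529139.
Hdac4: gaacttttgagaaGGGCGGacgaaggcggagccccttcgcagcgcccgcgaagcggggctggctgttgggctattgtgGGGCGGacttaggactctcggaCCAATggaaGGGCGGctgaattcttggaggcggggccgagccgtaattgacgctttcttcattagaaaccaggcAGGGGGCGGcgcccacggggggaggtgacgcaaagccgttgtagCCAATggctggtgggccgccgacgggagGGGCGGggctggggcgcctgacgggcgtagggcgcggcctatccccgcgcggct
Hdac7: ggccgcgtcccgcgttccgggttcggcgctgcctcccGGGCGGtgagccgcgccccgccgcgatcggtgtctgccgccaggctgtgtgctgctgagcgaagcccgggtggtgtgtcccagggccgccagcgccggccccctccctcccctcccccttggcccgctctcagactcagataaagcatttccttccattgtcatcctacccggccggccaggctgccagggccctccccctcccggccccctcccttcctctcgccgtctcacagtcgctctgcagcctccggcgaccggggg
Hdac9 outer: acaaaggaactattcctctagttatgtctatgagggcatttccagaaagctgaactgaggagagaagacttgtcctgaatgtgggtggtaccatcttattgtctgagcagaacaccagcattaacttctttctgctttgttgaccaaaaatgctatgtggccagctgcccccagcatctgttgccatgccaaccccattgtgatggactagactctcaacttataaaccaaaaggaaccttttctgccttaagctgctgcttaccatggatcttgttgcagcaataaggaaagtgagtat
Hdac9 inner: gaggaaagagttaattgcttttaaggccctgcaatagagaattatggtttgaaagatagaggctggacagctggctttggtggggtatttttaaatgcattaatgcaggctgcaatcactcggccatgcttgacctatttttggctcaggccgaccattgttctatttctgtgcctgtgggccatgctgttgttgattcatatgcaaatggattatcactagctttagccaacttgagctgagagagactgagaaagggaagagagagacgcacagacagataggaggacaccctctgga

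The Hdac4 window held 32 CpG pairs and 68% G or C, with 5 GC boxes, 2 CCAAT boxes and 1 match to the CTCF part. Over 32851 windows of the same length the median was 7 CpG pairs and 52.7% G or C, and 35.7% of windows held a GC box, 37.4% a CCAAT box and 12.9% the CTCF part. The Hdac7 window was as rich in CpG pairs (31), with 1 GC box. The Hdac9 windows held 0 CpG pairs at the outer start and 3 at the inner start, with no match to any motif searched. Among the other genes, Hdac2 had 36 CpG pairs, Hdac11 22, Hdac6 20 (with 5 GC boxes and 2 CCAAT boxes), Hdac5 18 and Hdac8 6. RUNX letters (TGTGGT, found in 16.8% of all windows) stood once each in the Hdac2, Hdac6 and Hdac8 windows. Hdac5 had a single E-box (CACGTG, found in 7.15% of all windows). No window of these genes held the ETS motif (CCGGAAGT), which 3.89% of all windows held, or the cyclic AMP response element (TGACGTCA), which 1.79% held. The PU.1 motif (GAGGAAGT) was likewise missing here and stood in 3.20% of all windows. The GATA motif (AGATAAG) was also missing here and stood in 3.04%. A match is only a run of letters, and nothing was measured about binding.

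Promoter peaks were present in every library at 9 of the 10 genes and missing at Hdac9. For comparison, 55.8% of 26794 genes with an annotated start had a peak within 1000 bp of it in all 4 libraries. Against all these genes, those without a promoter peak included, Hdac7 stood above 59.3% and Hdac8 above 64.2% by mean percentile. The other HDAC promoters with a peak stood above 75.1% (Hdac11) or more. Hdac4 stood first, with percentiles of 99.96 in control 1, 99.89 in control 2, 99.93 in KO 1 and 99.89 in KO 2, above the promoters of 99.7% of genes. Its region (chr1:92179851-92181144) spanned the window shown above, and the authors' fold over background there was 18.8, 17.2, 17.8 and 17.4 in the same order. By fold Hdac4 did not stand first. Hdac1 (21.5, 22.2, 20.8 and 21.1) and Hdac6 (20.5, 19.1, 18.3 and 18.3) had a higher fold in each library. The genotypes overlapped at the Hdac4 promoter.

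Hdac1 came next, at 99.1, 99.4, 99.0 and 99.4. Because the promoter table had no start for Hdac1 or Hdac3, the values of these genes are for the peak at the upper end of the gene, which is the end with a strong peak. The other class I genes followed, with Hdac2 at 97.2, 95.5, 97.3 and 96.5. Hdac3, the catalytic subunit of the NCoR and SMRT complexes, had 95.7 and 95.9 in the controls, against 97.6 and 96.7 in KO. It was the 1 promoter of the 9 whose genotypes did not overlap, with a mean difference of 1.36 percentile points. Across all 14938 promoters with a peak in every library, 25% ranked higher in both KO libraries than in both controls and 10.8% ranked lower. Hdac8, an X-linked class I gene, had 92.5, 91.0, 91.7 and 86.7, with the lowest value in KO 2 and the genotypes overlapping.

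In class IIa, Hdac5 had 98.0, 97.3, 98.2 and 96.3 and Hdac7 had 88.5, 81.2, 87.2 and 83.6. Hdac7 has 4 annotated starts. A pair of them, at 97831495 and 97831767, shared this peak, while the start at 97814863 had no peak and that at 97844502 had one in KO 2 only, at 33.8. Hdac9 had no peak within 1000 bp of its start at 34917095 or of that at 34528889 in any library. Hdac6 had 97.3, 96.4, 96.7 and 97.0, and Hdac11 had 96.3, 95.8, 96.2 and 94.7. Genotypes overlapped at every promoter of class IIa, IIb and IV that had a peak.

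**Figure D1:**
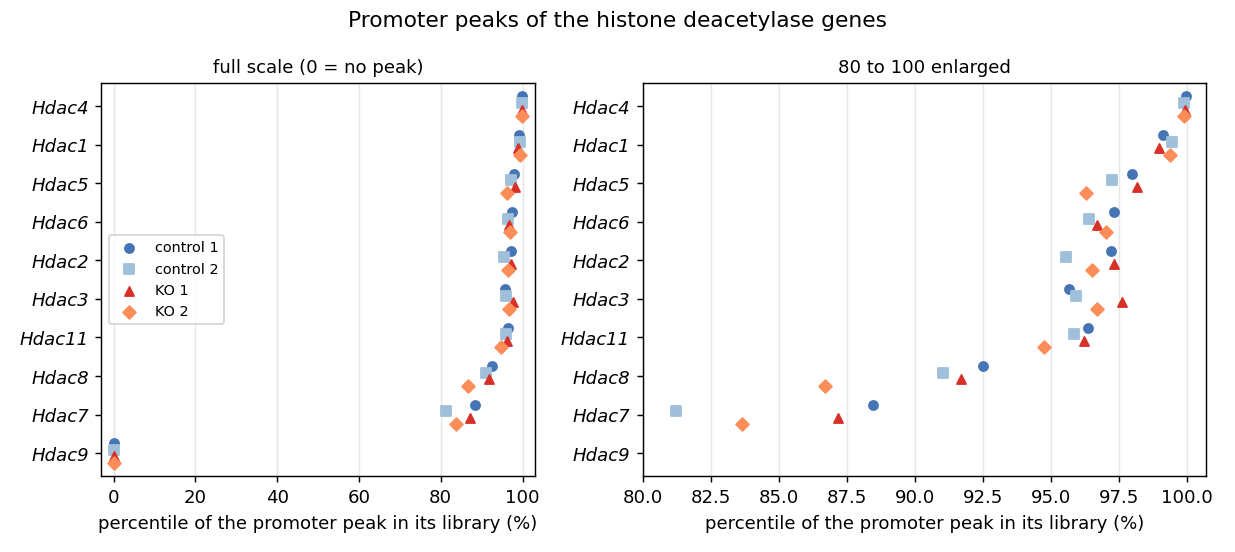
Percentile of the promoter peak of each histone deacetylase gene (x axis, %, 0 where there was no peak) in the 4 libraries, with genes ordered by their mean, on the full scale at left and from 80 to 100 at right, where Hdac9 has no point because its value was 0 in every library. Hdac4 lies at 99.9 or above after rounding in each library, Hdac3 alone has both KO points to the right of both control points, and Hdac7 and Hdac8 spread over the widest range.

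Ordered by the mean percentile over libraries, the promoters ran Hdac4, Hdac1, Hdac5, Hdac6, Hdac2, Hdac3, Hdac11, Hdac8, Hdac7 and Hdac9. The order by fold differs, as given above for Hdac4. The percentile ranges of the libraries separated Hdac4 from Hdac1, Hdac1 from Hdac5, Hdac11 from Hdac8 and Hdac7 from Hdac9. Neighbours from Hdac5 to Hdac11 overlapped in range, as did Hdac8 and Hdac7, and their order is not resolved. The genes outside the list with promoter percentiles closest to those of Hdac4 were Cops4, Cdk11b and Emc10, with summed absolute differences over the 4 libraries of 0.068, 0.0860 and 0.0982 percentile points.

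Most regions at these genes, promoters included, were shared by both genotypes. Of the 119 regions, 74 (62.2%) had a peak in all 4 libraries, against 58.4% of all regions. Only 2 (1.68%) had a peak in both KO libraries and neither control, against a background of 3.47% of all 137553 regions, and 5 (4.20%) were present only in the controls, against 6.05%. By rank, 18 regions (15.1%) stood higher in both KO libraries than in both controls, where the background was 18.4%, and 24 (20.2%) stood lower, where it was 18.7%. The median difference of KO minus control was −0.24 percentile points at the 119 regions and 0.009 over all regions. These counts depend on which weak peaks enter: when summits under a −log10 q of 5 were dropped, 4 of 54 regions (7.41%) ranked higher and 25 (46.3%) lower, with backgrounds of 6.54% and 34.8%. In lists cut to equal length 30 of 112 regions (26.8%) ranked higher and 19 (17.0%) lower, with backgrounds of 27.1% and 13.4%.

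The position of a region went with its level. The 8 regions within 1000 bp of an annotated start had median percentiles of 95.5 to 96.8 in the 4 libraries, and 7 of them were present in all 4. The 87 regions in gene bodies had medians of 60.0, 49.2, 57.0 and 56.8, with 51 present in all 4. They include the upper-end peaks used as the promoters of Hdac1 and Hdac3, because these genes had no annotated start. In gene bodies 11 regions (12.6%), that Hdac3 peak among them, ranked higher in KO and 22 (25.3%) lower, beside 18.4% and 18.7% of all regions. In the flanks of genes with a known strand, 3 of 11 downstream regions (27.3%) and 2 of 6 upstream regions (33.3%) ranked higher in KO and 0 ranked lower. At the flanks of Hdac1 and Hdac3, whose strand was not in the table, 2 of 7 (28.6%) ranked higher and 2 lower. The flank counts are small, and positions were not compared by a test.

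**Figure D2:**
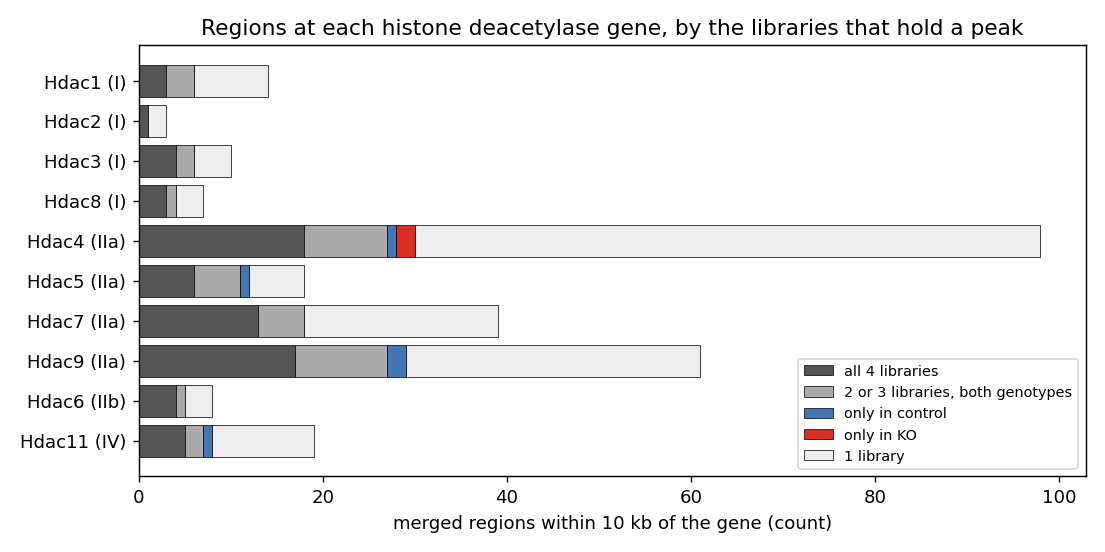
Number of merged regions within 10 kb of each histone deacetylase gene (x axis, count; class in parentheses), split by which libraries held a peak. Hdac4 has the most regions, of which 68 are in 1 library, and regions in 1 genotype only (red and blue) are 7 in all, at Hdac4, Hdac5, Hdac9 and Hdac11.

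The class I genes had 17 regions, with 0 only in KO and 0 only in the controls, beside 3.47% and 6.05% of all regions. Of the 17, 3 (17.6%) ranked higher in KO and 4 (23.5%) lower, beside 18.4% and 18.7% of all regions. Hdac1 (chr4:129516104-129542646) had 6 regions. The flank region chr4:129507950-129508201 had 63.0 and 53.9 in the controls, against 69.9 and 65.4 in KO. Another flank region, chr4:129549397-129549552, had 75.8 and 71.8 against 66.9 and no peak in KO 2, and most of its difference of −40.3 points is the missing peak in KO 2. The promoter of Marcksl1, which encodes a MARCKS family actin-binding protein, lies in the Hdac1 window at chr4:129513073-129514845 and had 96.2, 95.9, 96.0 and 94.8. Hdac2 (chr10:36974297-37001889) had its promoter region and no other in 2 or more libraries. Hdac8 (chrX:102284638-102505381) had 4 regions in a gene of 220744 bp, the lowest density of the 10 (1.66 per 100 kb). Its gene body region chrX:102494135-102494247 had 62.0 and 51.9 in the controls, 0 in KO 1 and 30.2 in KO 2, below both controls.

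Hdac3 (chr18:37936971-37955015) had 6 regions, of which 2 (33.3%) ranked higher and 2 (33.3%) lower in KO, beside the same 18.4% and 18.7%. The largest difference lay in its flank at chr18:37933191-37933356, with percentiles of 63.5 and 78.8 in the controls against 12.4 in KO 1 and 0 in KO 2. The gene body region chr18:37941552-37941942 had 60.0 and 55.8 against 46.5 and 45.5. In the controls the −log10 q was 4.97 and 17.2 at the flank region and 4.09 and 4.42 at the gene body region. Close by, at chr18:37934866-37935786, a strong peak ranked higher in KO (99.1 and 98.5 against 99.5 and 99.7). It is named because it neighbours the first, after its values were seen, and its difference was 0.813 points.

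Class IIa held 89 of the 119 regions, among them both of those present only in KO and 4 of the 5 present only in the controls. These were 2.25% and 4.49% of its regions, beside 3.47% and 6.05% of all regions. In this class 15 regions (16.9%) ranked higher in KO and 19 (21.3%) lower, beside the backgrounds of 18.4% and 18.7%. Hdac5 (chr11:102195747-102230172) had 12 regions. The gene body region chr11:102201057-102201568 had no peak in control 1 and 21.8 in control 2, against 57.0 and 71.1 in the KO libraries, and the difference of 53.2 points was the largest in favour of KO at any of the 10 genes. It lies 28860 bp from the start. The opposite pattern was seen 11924 bp from the start, at chr11:102218173-102218323, with 41.2 and 43.3 in the controls and no peak in KO. Another region, chr11:102207741-102209413, had 80.1 and 83.5 against 64.7 and 78.5. The downstream flank of Hdac5 also contained the start of G6pc3, a glucose-6-phosphatase gene needed by neutrophils, at 96.4, 93.4, 96.1 and 96.2.

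Hdac7 (chr15:97792661-97844502) had 18 regions and the highest density of the 10, 25.1 per 100 kb, above 91.7% of coding genes. None was confined to 1 genotype, beside 3.47% of all regions only in KO and 6.05% only in the controls. By rank, 5 (27.8%) stood higher and 4 (22.2%) lower in KO, beside 18.4% and 18.7% of all regions. Those with the largest differences were chr15:97837789-97838180 (59.4 and 42.7 against 23.7 and 0), chr15:97850446-97850746 (59.3 and 1.79 against 74.6 and 63.3) and chr15:97828933-97829309 (56.3 and 33.4 against 0 and 17.5). The second of these had a −log10 q of 8.41 in KO 1, and no other of their peaks reached a −log10 q of 5 in any library. Strong Hdac7 regions, named after their values were seen, differed by fewer percentile points, but percentiles near the top leave little room for a difference. The mean difference was −0.876 points at chr15:97825036-97825550 (97.7 and 96.9 against 96.6 and 96.3). It was 1.64 points at chr15:97849151-97850063 in the upstream flank (94.1 and 93.5 against 95.9 and 95.0). By fold over background the genotypes overlapped at the former (15.10 and 13.34 against 13.41 and 12.44). They did not at the latter (11.85 and 11.96 against 14.58 and 13.65).

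Hdac9 (chr12:34047580-34917095), the longest of the genes at 869516 bp, had 29 regions, a density of 3.26 per 100 kb. In spite of the missing promoter peaks, 17 of these were present in all 4 libraries. Their median percentiles were 65.8, 64.1, 69.8 and 67.4, lower than the 73.3 to 74.6 seen for such regions over all 10 genes. A pair of Hdac9 regions (6.90%, beside 6.05% of all regions) was present only in the controls, chr12:34338999-34339142 (62.0 and 46.8) and chr12:34724432-34724584 (67.3 and 20.1). The region chr12:34142851-34143021 ranked higher in KO, with 47.0 and 0 against 71.7 and 56.8. Among regions with no gap in any library, chosen after their values were seen, chr12:34432580-34433259 had 64.9 and 66.1 in the controls against 78.0 and 82.9, and chr12:34658336-34658503 had 62.0 and 59.0 against 76.7 and 79.0. Across the gene 6 regions (20.7%) ranked higher in KO and 6 (20.7%) lower, beside 18.4% and 18.7%.

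Hdac6 (chrX:7930116-7948047) had 5 regions, 4 of them (80%) present in all libraries, beside 58.4% of all regions. Every one of the 5 overlapped between the genotypes, where 18.4% of all regions ranked higher in KO and 18.7% lower. Hdac11 (chr6:91156670-91174692) had 8 regions in 18023 bp. One gene body region (12.5%, beside 6.05% of all regions), chr6:91165749-91165862, was present only in the controls, with a percentile of 49.2 in each. It lies beside a stronger region, chr6:91165159-91165670, that had 88.8, 87.7, 90.4 and 87.7 and overlapped between the genotypes.

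Hdac4 (chr1:91928779-92195702) had 98 regions, of which 68 were seen in 1 library and 30 in at least 2. The 30 put Hdac4 above 98.5% of coding genes by number, but per length its 10.5 regions per 100 kb stood above 51.5% of them. The libraries held 43, 34, 46 and 46 of the 98 regions, beside 172740, 152879, 168591 and 163574 of all 337776 regions with a peak in any library. Peaks covered 10221 and 9561 bp in the controls, against 9260 and 9416 bp in KO. Over the whole lists the covered length was also smaller in KO, with 52.9 and 48.9 Mb in the controls against 42.6 and 44.4 Mb. Of the 30 regions, 18 were present in all libraries, 2 (6.67%) only in KO and 1 (3.33%) only in the controls, beside 3.47% and 6.05% of all regions. By rank, 3 (10.0%) stood higher in KO and 7 (23.3%) lower, beside 18.4% and 18.7%.

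The Hdac4 regions present only in KO were weak. The first, chr1:91925761-91926232, lies in the downstream flank, 254344 bp from the start, and had percentiles of 34.5 and 56.8 with a −log10 q of 1.45 and 2.40. The second, chr1:92099644-92099804, lies in the gene body 80617 bp from the start and had 21.1 and 30.2, with a −log10 q of 0.886 and 1.02. Neither passed a −log10 q of 5 in any library. The region present only in the controls, chr1:91990896-91991194, had 47.0 and 51.9, with a −log10 q of 2.10 and 3.68. The next largest difference was at chr1:91960044-91960740, with 62.8 and 47.4 against 38.3 and 4.48. Regions with a peak in all libraries and no overlap, named after their values were seen, included chr1:92082632-92083288 (83.1 and 81.1 against 65.4 and 68.0) and, in the other direction, chr1:92051925-92052753 (91.1 and 90.7 against 94.3 and 94.2).

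**Figure D3:**
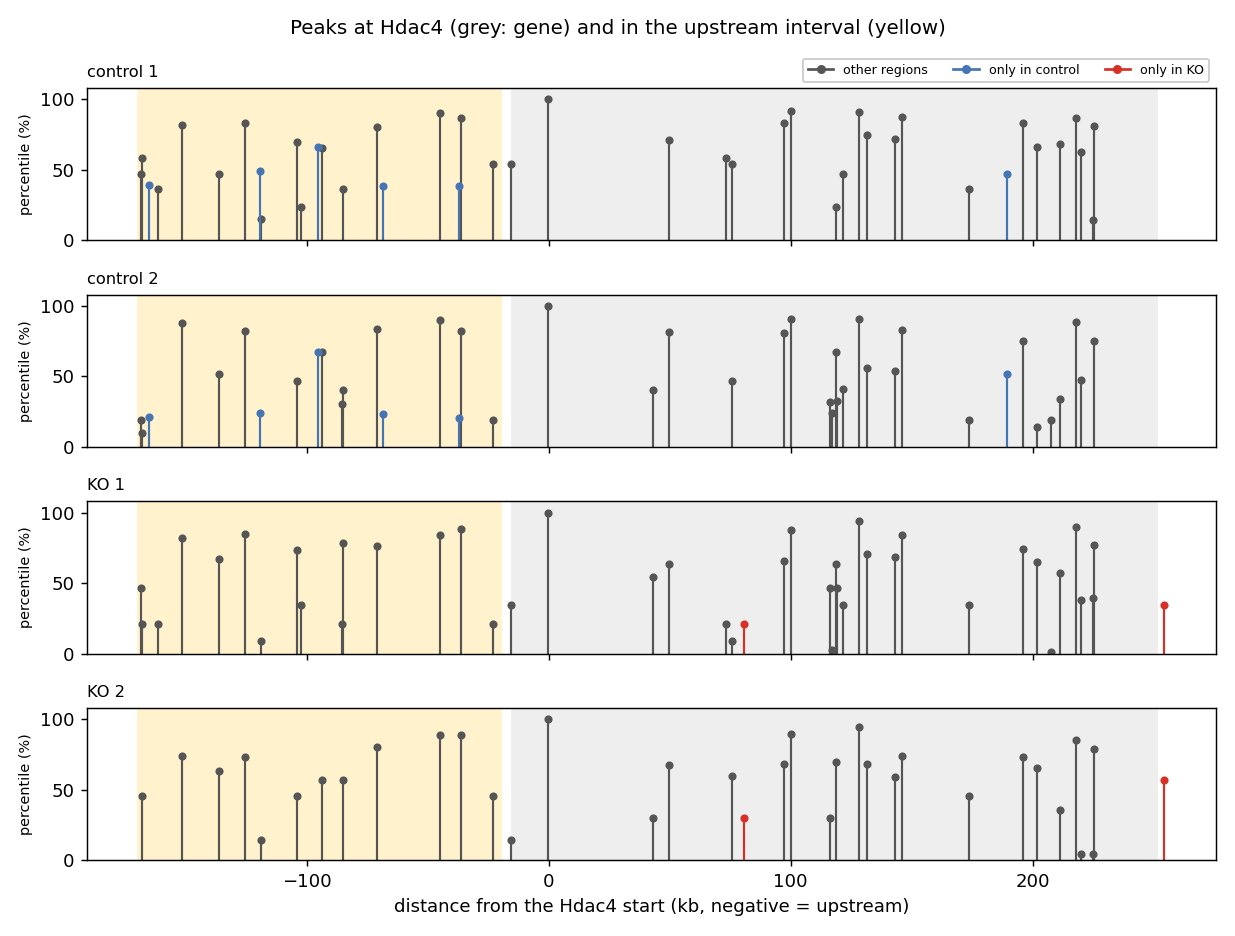
Percentile (y axis, %) of each region with a peak in at least 2 libraries against its distance from the Hdac4 start (x axis, kb; negative is upstream), a panel for each library, with the gene in grey and the upstream stretch in yellow. Blue regions are present only in the controls, 5 of them upstream and 1 in the gene, red regions only in KO, and the promoter peak at 0 is near 100 in every panel.

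The stretch upstream of Hdac4 begins 19.7 kb before its annotated start and contains no gene of the annotation used. That start lies inside the annotated gene, which runs on to 92195702, so the stretch is nearer to the gene than to the start. Distances given for Hdac4 and the stretch are from the start, not from the end of the gene. The next genes beyond its far end are the lncRNA gene Gm35992, 29.6 kb away, the pseudogene Gm7837, 79.9 kb away, and Ndufa10, a subunit gene of mitochondrial complex I, 89.5 kb away. Of its 21 regions, 10 (47.6%) were present in all libraries, 0 only in KO and 5 (23.8%) only in the controls. By rank, 3 (14.3%) stood higher in KO and 8 (38.1%) lower, the 5 included, and the median difference was −3.85 points. The libraries held 34 and 24 of its 54 regions in the controls and 22 and 18 in KO. Of all 337776 regions with a peak in any library, they held 172740 and 152879 in the controls and 168591 and 163574 in KO. The backgrounds over all regions were 3.47% only in KO, 6.05% only in the controls, 18.4% higher and 18.7% lower, but the stretch was chosen with such values known, so nothing is read from the excess.

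The largest of these differences was at chr1:92275553-92275675, at −95273 bp from the start, with percentiles of 66.3 and 67.3 in the controls, a −log10 q of 5.85 and 8.53, and no peak in KO. Next to it, chr1:92273800-92274451 had 65.5 and 67.3 against 0 in KO 1 and 56.8 in KO 2. The remaining regions present only in the controls were weak. They were chr1:92217339-92217517 (38.2 and 20.5), chr1:92248742-92248847 (38.8 and 23.3), chr1:92299462-92299675 (48.8 and 24.1) and chr1:92345293-92345623 (39.3 and 20.9). When each list was cut to its 100000 strongest summits, 6 upstream regions were left and 0 were present only in the controls, and when summits under a −log10 q of 5 were dropped, 8 were left and 2 were.

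The regions that ranked higher in KO upstream of Hdac4 were chr1:92265021-92265413 (36.1 and 40.2 against 78.7 and 56.8), chr1:92316190-92316907 (47.0 and 51.9 against 66.9 and 63.1) and chr1:92216121-92217222 (86.8 and 82.3 against 88.6 and 89.1). The last, at −36330 bp from the start, is next to a weak region present only in the controls. At chr1:92331269-92332616 the controls had 81.6 and 88.2 and the KO libraries 81.6 and 74.2, so the genotypes were apart by less than 0.01 point. The strongest region of the stretch in the controls, chr1:92224950-92225975, named after its values were seen, had 90.2 and 89.9 against 84.0 and 89.1.

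At the limits of the stretch, the region just inside its far end (chr1:92348878-92349207) had 47.0, 19.3, 46.5 and 0, and the next one outside (chr1:92360099-92360299) had 0, 43.6, 0 and 33.7. At the near end the values were 53.7, 19.3, 21.1 and 45.5 inside (chr1:92203487-92203671) and 53.7, 0, 34.5 and 14.5 outside (chr1:92195865-92196086). At the far limit of the Hdac4 flank, the first region inside was one of those present only in KO, and the first outside (chr1:91918434-91918622) had 27.8, 0, 26.0 and 0.

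**Figure D4:**
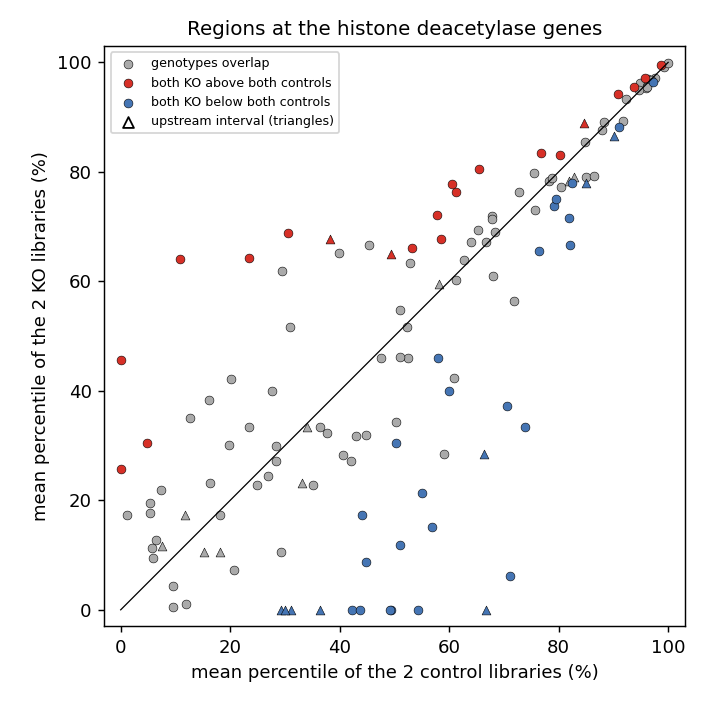
Mean percentile of the KO libraries (y axis, %) against that of the controls (x axis, %) for each of the regions at the genes (circles) and upstream of Hdac4 (triangles), with red where both KO libraries lie above both controls and blue where both lie below. Strong regions lie near the line of equal values, where percentiles near the top leave little room for a difference. The regions at 0 in 1 genotype have a mean of at most 66.8 in the other.

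Partner genes of these enzymes were described in the same way, from a list of 36 corepressor, MEF2, 14-3-3 and kinase genes, all of which were found. They had 398 regions. Of these, 9 (2.26%) at 8 genes were present only in KO and 26 (6.53%) at 18 genes only in the controls, against backgrounds of 3.47% and 6.05%. By rank, 63 (15.8%) stood higher in KO and 74 (18.6%) lower, with backgrounds of 18.4% and 18.7%. The partners' shares thus lay near those of all regions. All 29 partner genes with an annotated start had a promoter peak in every library, with single-library percentiles from 83.5 (Mta1 in control 2) to 99.9 (Gatad2b in KO 2), and 10 of these promoters ranked higher and 1 lower in KO, beside 25% and 10.8% of all such promoters.

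The strongest partner regions present only in KO lay at Tbl1xr1, which encodes a subunit of the NCoR and SMRT complexes that also contain HDAC3 (chr3:22222334-22222476, 63.7 and 56.8). Camk2d, a kinase gene whose product can hold class IIa enzymes in the cytoplasm, had 2 such regions (chr3:126693576-126693829, 47.1 and 68.0, and chr3:126750948-126751122, 21.1 and 45.6). Chd4, the remodeling ATPase of the NuRD complex, had one with 23.8 and 60.2 (chr6:125107810-125108097), and Mef2c, a transcription factor bound by class IIa enzymes, had one with 22.0 and 47.9 (chr13:83560272-83560450).

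The strongest present only in the controls lay at Rcor1, the CoREST subunit that joins HDAC1 and HDAC2 to a demethylase (chr12:111041363-111041473, 63.3 and 73.9, with a −log10 q of 4.87 and 12.4), and at Rbbp4, a histone-binding subunit of the SIN3 and NuRD complexes (chr4:129341997-129342151, 67.3 and 51.9). They were followed by Mef2a (chr7:67239053-67239270, 67.5 and 32.3), by the SIN3 subunit gene Suds3 (chr5:117125572-117126004, 54.8 and 43.7) and by the NuRD subunit gene Gatad2b (chr3:90284238-90284379, 47.0 and 46.8). Mef2c, Tbl1xr1, Camk2d, Chd4 and Mta1 each had regions present only in KO and others present only in the controls.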

How the data were processed

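ATAC-Seq of sorted bone marrow cells gave 4 peak lists, 2 control and 2 KO, deposited by the authors with a row per summit and called on each library separately. The submitters' processing notes name Bowtie2, MACS2 and mm10, without versions. The deposited columns used were the fold over the library's background, a ratio, and the −log10 p and −log10 q. The authors' display score was not used. No deposited −log10 p was under 2.0. A chromosome position stood in place of the summit offset for 253 to 492 summits of each list, and was used as such. Read counts were not used here, so depth and its precision are unknown.

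Intervals on the autosomes and X were merged at 1 bp overlap in Python 3.11.15 with numpy 2.4.6 and pandas 2.3.3, and percentiles were taken within each library. Genes and starts came from RefSeq tables of GRCm38.p6, the same build as mm10, with no exons, so regions are placed only in gene bodies or flanks. The members, gene lists and alternatives were chosen with earlier results of these data known. With 2 libraries per genotype an exact two-sided permutation test cannot go below p = 0.333, so none was run. The study's own differential test was made on reads, which were not analysed here.

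Named were each member promoter, each region in 1 genotype only, at most 3 regions per gene and 10 in the upstream stretch whose genotypes did not overlap, by size of difference, 3 promoters most like that of Hdac4, and at most 5 partner regions per direction. Others are marked in the text as named after their values were seen. Alternatives were a −log10 q of at least 5, the 100000 strongest summits, lists of equal length, a peak covering at least 50% of a region, 200 bp on each side of the summits, a flank of 1000 bp, rank by fold, and leaving out each library. Merging and counting were checked on simulated lists with well separated regions and the same detection rate in each library. That check cannot speak for close, weak peaks or for lists of unequal length.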

Additional observations from a re-analysis of the deposited data

How the results depend on the processing

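Counts are given as regions at the 10 genes, and then in the stretch upstream of Hdac4, and the shares in brackets give first the regions counted and then all regions under the same setting. With every peak (119 and 21 regions), 2 and 0 were only in KO, 5 and 5 only in the controls, 18 and 3 ranked higher in KO, and 24 and 8 ranked lower. Dropping summits under a −log10 q of 5 left 54 and 8 regions. Of the 54, 0 were only in KO (0% beside 0.807%) and 4 ranked higher (7.41% beside 6.54%). Of the 8, 2 were only in the controls (25% beside 7.02%), 0 ranked higher (0% beside 6.54%) and 5 lower (62.5% beside 34.8%). The 100000 strongest summits left 52 and 6 regions. Of the 52, 2 were only in the controls (3.85% beside 2.76%), 9 ranked higher (17.3% beside 24.1%) and 14 lower (26.9% beside 15.8%). Of the 6, 0 were only in the controls (0% beside 2.76%), 1 ranked higher (16.7% beside 24.1%) and 1 lower (16.7% beside 15.8%). With 200 bp windows around summits, 4 of 118 gene regions were confined to KO (3.39% beside 3.89%) and 3 to the controls (2.54% beside 5.39%). A flank of 1000 bp gave 98 gene regions, with 1 only in KO (1.02% beside 3.47%) and 11 ranked higher (11.2% beside 18.4%). Lists of equal length gave 112, with 4 only in KO (3.57% beside 3.90%) and 30 ranked higher (26.8% beside 27.1%). With a peak covering at least 50% of the region, 12 gene regions were only in the controls (11.9% beside 11.3%) and 1 of 16 upstream ranked higher (6.25% beside 15.9%). Of 80 counts under all alternatives, left-out libraries included, 40 moved by more than 1.5 times, or to or from 0. Rank by fold moved none. Counts and not shares were compared, although the number of regions also changed with most settings.

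Leaving out a library reduces a genotype to 1 library and so raises the number of regions confined to it by construction. Regions with a peak in 1 library were counted here for those confined to a genotype, which also raises the totals. Those ranked higher or lower still needed a peak in at least 2 libraries. Gene regions only in KO then ran from 7 of 243 (2.88% beside 3.06%) to 56 of 241 (23.2% beside 21.5%). Those only in the controls ran from 12 of 241 (4.98% beside 6.11%) and of 229 (5.24% beside 4.93%) to 48 of 258 (18.6% beside 20.6%). Ranked higher were 28 of 106 (26.4% beside 29.3%) and of 104 (26.9% beside 33.9%) to 42 of 112 (37.5% beside 37.6%). Ranked lower were 34 of 112 (30.4% beside 26.1%) to 52 of 106 (49.1% beside 35.8%). Upstream, 0 of 51 (0% beside 2.80%) to 7 of 49 (14.3% beside 21.2%) were only in KO. Only in the controls were 5 of 49 (10.2% beside 6.11%) to 19 of 51 (37.25% beside 20.6%). Ranked higher were 3 of 17 (17.65% beside 29.3% and 33.9%) to 6 of 15 (40% beside 37.6%) and of 21 (28.6% beside 39.5%). Ranked lower were 6 of 15 (40% beside 26.1%) to 10 of 17 (58.8% beside 35.8% and 39.8%). Upstream of Hdac4 more regions ranked lower than higher in KO under each alternative except the 100000 strongest summits, with 1 each, and without control 1, with 6 each. All regions also leaned lower under some settings, such as without control 2 (29.3% higher and 35.8% lower). They leaned higher under others, such as without control 1 (37.6% and 26.1%). The stretch was chosen with such values known, so nothing is read from this count of settings. No paired analysis was possible because the values come from no test, and the replicate numbers name libraries only. Depth is unknown, so a missing peak is not a closed region.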
